A study of Homo sapiens with 5 samples.

Results

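The genes described are 9 genes of the membrane pits called caveolae and of the giant AHNAK scaffold: CAV1, CAV2, CAVIN1, CAVIN2, CAVIN3, EHD2, PACSIN2, AHNAK and AHNAK2. They were taken by name out of 64837 entries in the count tables, and the list was drawn up with the result of the comparison below already known, so the differences of these 9 genes between the groups are given as a description, without p-values, and the calls printed for them restate the choice. CAVIN2 was found by its GENCODE name, because the deposited list of gene names did not hold it, and the other 8 genes were found in that list.

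The samples were RNA-Seq libraries of NCI-H209, an established human small cell lung cancer (SCLC) line. The control group held 3 libraries of untreated NCI-H209 cells, and the co-cultured group held 2 libraries of NCI-H209 cells kept for 24 h with human brain microvascular endothelial cells (HBMECs). The HBMECs sat in a Transwell insert above the tumor cells, so both cell types shared medium across a porous membrane, and the tumor cells were then collected. The sources do not say whether the control wells had an empty insert, nor whether replicates came from separate cultures, so the p-values below measure the spread between these libraries, which may be technical.

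Caveolae are small flask-shaped pits of the plasma membrane that buffer membrane tension, organise signaling and carry cargo. Caveolins (CAV1, CAV2) sit in the inner leaflet, cavins (CAVIN1, CAVIN2, CAVIN3) form a coat around them, the ATPase EHD2 holds the neck, and the F-BAR protein PACSIN2 bends the membrane. Endothelial cells are rich in caveolae and in most of these proteins, whereas neuroendocrine SCLC lines usually express little caveolin. AHNAK is a giant scaffold under the plasma membrane that binds annexin A2 with S100A10, and AHNAK2 is its paralog.

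Totals were 15457071 to 19157348 counts per library, so that 3 counts, taken as the floor of detection, were worth 0.157 to 0.194 CPM, the count scaled to a common library total. Unmapped reads were 8.13% to 8.48% in control and 15.9% and 16.8% in the co-cultured libraries, and the part of this difference in the values below was not tested. Control replicates 1 and 2 had at least 10 counts each of 12 endothelial or stromal marker genes, such as FLT1 and DCN. In control replicate 3 these genes had at most 4 counts, and they were picked by that pattern. Over all genes with enough counts, control replicate 1 was the library apart. Its chi-square per degree of freedom was 17.9 against replicate 2 and 18.1 against replicate 3. Between control replicates 2 and 3 it was 6.34. Because of the 12 markers, values of the 9 genes are also given without control replicates 1 and 2. This alternative was chosen after the data were seen, leaves 1 control library and takes the spread from the co-cultured pair. Of 15 neuroendocrine markers, 14 passed the filter on low counts, and SYP, a protein of synaptic vesicles that marks neuroendocrine cells, had 1019 to 1651 counts in every library, whereas CHGA had at most 1 count. Of these markers 5 were called higher, SYP among them, and 3 lower, led by ISL1, by the test described below. Over all genes tested, 18.4% were called higher and 15.0% lower. Without co-cultured replicate 1 or 2, the calls among the neuroendocrine markers were 4 and 5. In bulk RNA, more expressing cells and more RNA per cell cannot be told apart.

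Among the 9 genes, CAV1, CAV2, AHNAK and PACSIN2 were higher in the co-cultured libraries, CAVIN1 and AHNAK2 overlapped between the groups, and CAVIN2, CAVIN3 and EHD2 were at the floor of detection everywhere. The 6 genes above the floor passed the filter on low counts. A gene was called when its p by the quasi-likelihood test of edgeR, after Benjamini-Hochberg adjustment, was under 0.05. The calls numbered 4 higher and 0 lower among those 6 genes, where 18.4% of the 20360 genes tested were called higher and 15.0% lower. Higher genes made up 55.1% of all calls, and 43.9% under upper-quartile scaling. Both co-cultured libraries lay above all control libraries for the same 4 genes, as for 29.4% of all genes tested. The thresholds of the study for DEGs, a fold change over 1 and a p under 0.05, were read here on the log2 scale and as an unadjusted p. By them 3 of the 6 were upregulated (CAV1, CAV2 and AHNAK) and 0 downregulated, as were 5.44% and 5.01% of the genes tested. Because the genes were chosen on this comparison, nothing is read from these shares. The median log2 fold change over all genes tested was -0.03.

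**Figure D1:**
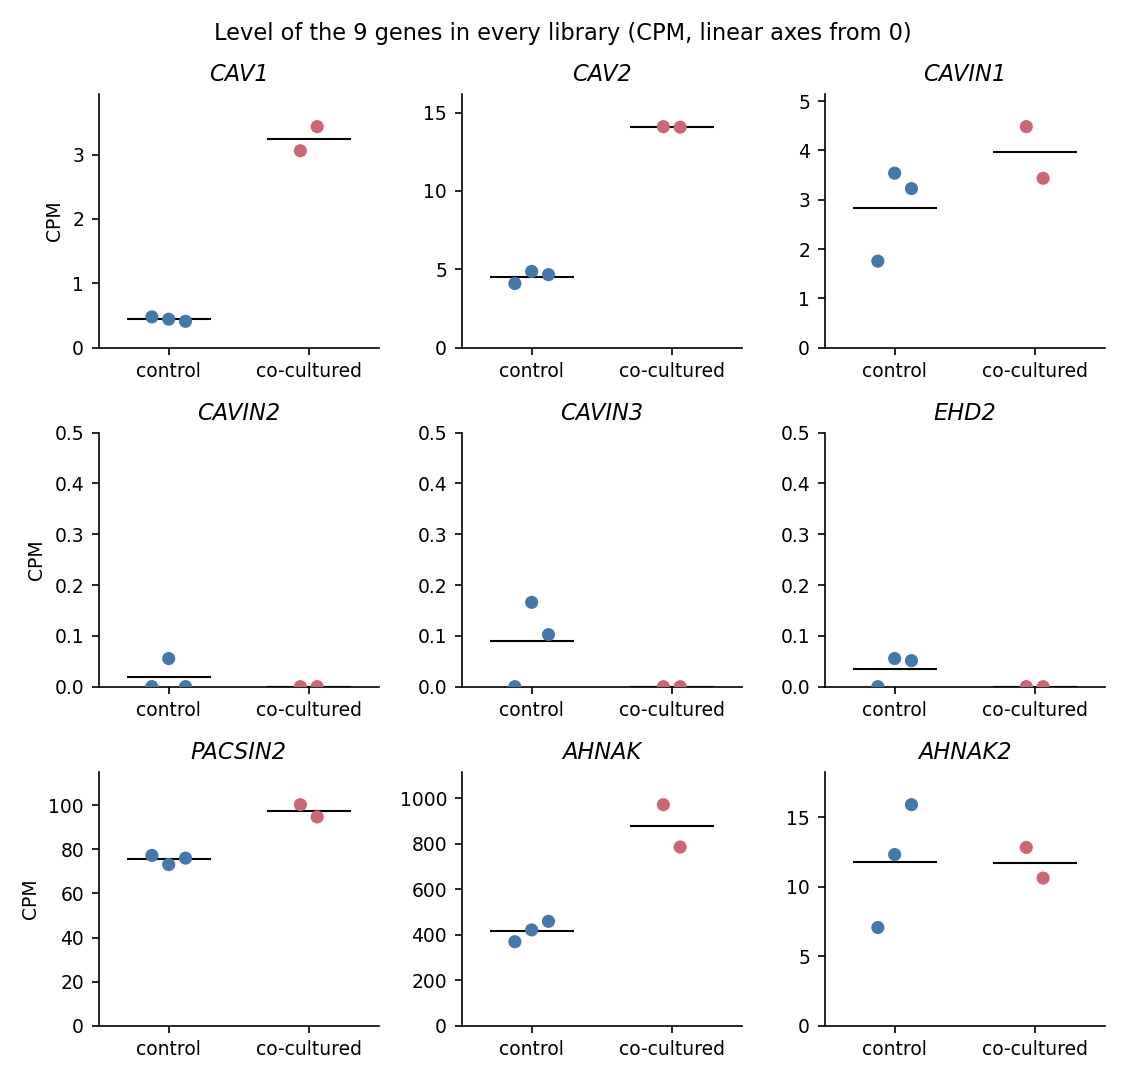
CPM of each of the 9 genes in the 3 control libraries (blue) and the 2 co-cultured libraries (red), 1 point per library, with a line at the group mean; each panel has its own linear axis from 0. CAV1, CAV2, PACSIN2 and AHNAK sit higher in both co-cultured libraries, CAVIN1 and AHNAK2 overlap, and CAVIN2, CAVIN3 and EHD2 stay below 0.2 CPM.

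CAV1, the caveolin without which caveolae do not form in most tissues, lies at chr7:116524785-116561184 on the plus strand of GRCh38. Its control libraries held 9, 8 and 8 counts, and its co-cultured libraries held 56 and 52. In CPM, these were 0.479, 0.442 and 0.410 against 3.06 and 3.43. Every co-cultured library was several times above every control library, and the control libraries stood a few counts above the floor. Control libraries averaged 0.444 ± 0.0345 CPM (SD, n = 3), against 3.25 ± 0.265 CPM (SD, n = 2) after co-culture. The log2 fold change was 2.85 (SE 0.29), or 7.22-fold. Without control replicates 1 and 2 the log2 fold change was 2.96. No read of any library fell on the strand opposite to CAV1.

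CAV2, the partner that needs CAV1 to reach the plasma membrane, lies next to it at chr7:116287380-116508541 on the same strand. Its counts were 77, 88 and 91 in control and 258 and 213 in the co-cultured libraries, or 4.09, 4.87 and 4.66 against 14.1 and 14.1 CPM. The co-cultured libraries were nearly equal in CPM and stood clear of the control libraries. The log2 fold change was 1.63 (SE 0.15), or 3.10-fold, and 1.59 without control replicates 1 and 2. Per kb of exon, CAV2 stood 5.04, 6.48 and 6.70 times above CAV1 in the control libraries, and 2.72 and 2.41 times above it in the co-cultured libraries. The lead of CAV2 over CAV1 was thus smaller in both co-cultured libraries than in any control library. These ratios used merged exon lengths, and another choice of lengths would scale every library alike.

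The start regions of CAV1 and AHNAK are shown because both genes were higher after co-culture. RefSeq (GRCh38.p14) lists 16 windows, each from 250 bases before to 50 bases after a start, for 7 of the 9 genes, with none for CAVIN1 and CAVIN3. The stretch of CAV1 is chr7:116526112-116526276 on the plus strand, 165 bases of the window of an internal start at position 116526362 that no annotated exon on that strand covers. The stretch of AHNAK is chr11:62545827-62546076 on the minus strand, 250 bases ahead of a start inside the gene, and an exon of the antisense transcript AP001363.2 covers part of it on the other strand. Both are printed in the direction of transcription, and capitals mark the SP1 box GGGCGG on either strand.
CAV1: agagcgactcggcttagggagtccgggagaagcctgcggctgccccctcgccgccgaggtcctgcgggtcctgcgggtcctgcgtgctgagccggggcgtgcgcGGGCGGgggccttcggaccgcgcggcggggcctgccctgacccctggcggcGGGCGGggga
AHNAK: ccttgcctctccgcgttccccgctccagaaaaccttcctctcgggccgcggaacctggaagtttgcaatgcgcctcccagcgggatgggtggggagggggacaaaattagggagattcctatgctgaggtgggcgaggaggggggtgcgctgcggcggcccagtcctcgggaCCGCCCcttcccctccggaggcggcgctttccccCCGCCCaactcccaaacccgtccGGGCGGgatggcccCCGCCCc

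The stretch of CAV1 held 2 SP1 boxes and that of AHNAK held 4. The windows of CAV2 held 6 and 4 such boxes, but they lie within an annotated exon and are not printed. The box is common, present in 45.0% of all 35116 windows of this length. The AP-1 motif TGANTCA, found in 7.71% of all windows, was in none of the 16 windows. The TEAD motif GGAATG, found in 14.0% of all windows, was in the AHNAK window once, outside the stretch printed, in the window of CAVIN2 and in 4 of the windows of PACSIN2. Most of these PACSIN2 windows overlap one another, so the same site may be counted more than once. The HIF core ACGTG, in 21.4% of all windows, was found in the 2 overlapping windows at the first starts of CAV1. All motifs were searched on both strands, and a match is a description of the letters only.

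CAVIN1, the coat protein that caveolae require beside CAV1, lies at chr17:42402452-42423517 on the minus strand. It had 33, 64 and 63 counts in control and 82 and 52 after co-culture, or 1.75, 3.54 and 3.23 against 4.48 and 3.43 CPM. The lower co-cultured library lay below the highest control library, so the groups overlapped, and the lowest value was that of control replicate 1. The log2 fold change was 0.49 (SE 0.30) and was not called. Per kb of exon CAVIN1 exceeded CAV1 3.91, 8.53 and 8.40 times in control and 1.56 and 1.07 times after co-culture, so both RNAs came close to each other in the co-cultured libraries.

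The remaining coat and neck genes were hardly detected. CAVIN2, which recruits CAVIN1 to the membrane, had 0, 1 and 0 counts in control and 0 in both co-cultured libraries. CAVIN3, a cavin linked to signaling by protein kinase C, had 0, 3 and 2 counts in control and none after co-culture. EHD2 had 0, 1 and 1 counts in control and none after co-culture. A count of 0 allows at most 3 counts, which is 0.159 and 0.194 CPM in the co-cultured libraries. At this depth no level and no difference was measurable for these 3 genes, and they were not tested.

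PACSIN2, the F-BAR protein that also acts in other membrane traffic, lies at chr22:42835412-43015145 on the minus strand. It had 1453, 1322 and 1485 counts in control and 1835 and 1434 after co-culture, or 77.3, 73.1 and 76.0 against 100.3 and 94.7 CPM. In CPM each co-cultured library exceeded each control library, by less than for the caveolins. The log2 fold change was 0.37 (SE 0.07), or 1.29-fold. Without co-cultured replicate 1 it was 0.34 and the call was lost. PACSIN2 shares exonic sequence on its own strand with ARFGAP3, and reads there are assigned to neither gene by this way of counting.

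AHNAK lies at chr11:62433542-62556235 on the minus strand, and most of its coding sequence is a single long exon of related repeats. It had 6940, 7616 and 8960 counts in control and 17779 and 11891 after co-culture. In CPM, these were 369, 421 and 459 against 972 and 785. The groups did not overlap, and both differed within themselves, with co-cultured replicate 1 the highest and control replicate 1 the lowest. Control libraries averaged 416 ± 45.1 CPM (SD, n = 3), against 879 ± 132 CPM (SD, n = 2) after co-culture. The log2 fold change was 1.08 (SE 0.12), or 2.11-fold. This value crosses the DEG threshold as read here by little, and it was 0.94 without control replicates 1 and 2, 0.92 without co-cultured replicate 1 and 0.997 under upper-quartile scaling. It took 0.0362%, 0.0440% and 0.0469% of all counts in control and 0.0940% and 0.0769% in the co-cultured libraries, which moved its rank among all entries from 341, 253 and 207 to 50 and 77.

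AHNAK2, on chr14:104937244-104978357 on the minus strand, has the same layout of repeats. It had 133, 223 and 311 counts in control and 235 and 161 counts after co-culture, or 7.07, 12.3 and 15.9 against 12.8 and 10.6 CPM. Both co-cultured libraries lay within the range of the control libraries. The log2 fold change was 0.00 (SE 0.28). Without control replicates 1 and 2 it was -0.43, with 1 control library left and the spread taken from the co-cultured pair alone. Per kb of exon, AHNAK exceeded AHNAK2 50.3, 32.9 and 27.8 times in control and 73.0 and 71.2 times after co-culture, above every control library.

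Both AHNAK genes contain stretches that occur more than once, which bears on how surely short reads can be placed. The most repeated stretch of 100 bases in the coding sequence of each is shown in the direction of transcription, first for AHNAK at chr11:62528447-62528546 (GRCh38, minus strand) and then for AHNAK2 at chr14:104949930-104950029 (GRCh38, minus strand).
AHNAK: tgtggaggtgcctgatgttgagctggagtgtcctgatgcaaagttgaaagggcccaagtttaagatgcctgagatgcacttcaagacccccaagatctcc
AHNAK2: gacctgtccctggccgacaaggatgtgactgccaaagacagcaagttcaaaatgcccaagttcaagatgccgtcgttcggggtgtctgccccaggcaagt

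The AHNAK stretch occurs 2 times in the transcript, with starts 585 bases apart, and the AHNAK2 stretch occurs 3 times. In the longest coding transcript of AHNAK, with 18787 bases, 8.63% of all stretches of 50 bases and 1.08% of those of 100 bases recurred within the transcript. In AHNAK2, with 18254 bases, these shares were 12.4% and 1.25%. No stretch of 100 bases in the longest coding transcripts of the 9 genes was found in a transcript of a gene outside the list. These shares belong to the transcripts and are the same for every library.

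Per kb of exon, the control libraries placed AHNAK at 21.4 CPM per kb and PACSIN2 at 16.6, far above CAVIN1 at 0.742, CAV2 at 0.655, AHNAK2 at 0.627 and CAV1 at 0.109. These levels were at percentile 91.9 for AHNAK, 87.6 for PACSIN2, 42.9 for CAVIN1, 41.6 for CAV2, 41.4 for AHNAK2 and 31.2 for CAV1 among protein-coding genes. These lengths merge all annotated exons of a gene. By them, CAVIN1, CAV2 and AHNAK2 were not separable in control, because their library values overlapped. The merged exons of CAV2 span 6926 bases, beside 3301 in its longest coding transcript, whereas CAVIN1 has 3828 by either measure. On the shorter length CAV2 would stand above CAVIN1 and AHNAK2 in every control library, so its place in control depends on this choice. After co-culture the order was AHNAK at 45.1, PACSIN2 at 21.4, CAV2 at 2.03, CAVIN1 at 1.03, CAV1 at 0.796 and AHNAK2 at 0.625 CPM per kb. CAV2 then stood apart from CAVIN1, and the ranges of CAVIN1 and CAV1 were then close, at 0.897 to 1.17 and 0.750 to 0.841 CPM per kb.

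**Figure D2:**
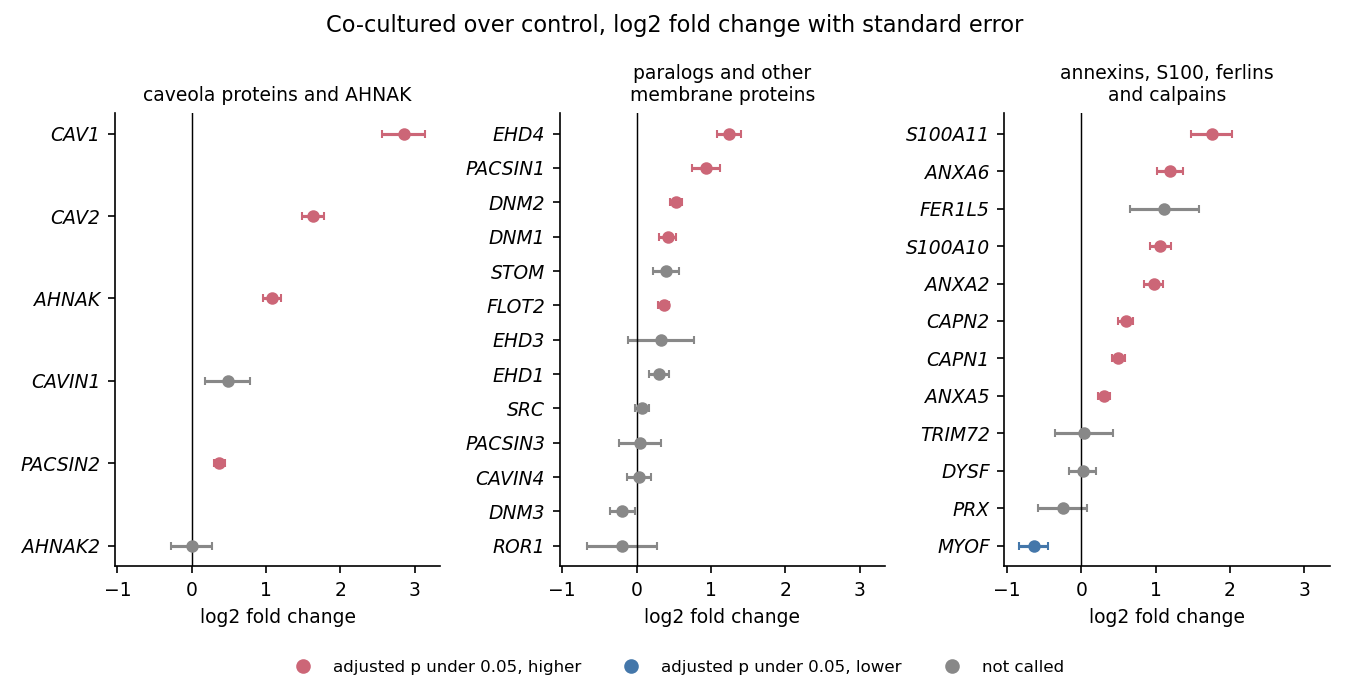
Change on the log2 scale from control to co-cultured with its standard error (horizontal bars) for the tested genes among the 9 (left), their paralogs and other membrane proteins (middle) and the partners of AHNAK (right). Red points were called higher, blue points lower and grey points not called; CAV1 reaches 2.85, whereas CAVIN1 and AHNAK2 have bars that come near or cross 0.

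The relatives of the caveola genes moved in part. Of 16 paralogs and other proteins of caveolae and flotillin-rich membranes, 13 were tested, and 5 were called higher and 0 lower, where 18.4% and 15.0% of all genes tested were. The median of their log2 fold changes was 0.33, beside -0.03 over all genes. Without co-cultured replicate 1 or 2, the calls were 2 and 3. EHD4, an endosomal ATPase related to EHD2, averaged 11.3 ± 2.31 CPM (SD, n = 3) without and 26.8 ± 2.64 CPM (SD, n = 2) with HBMECs, and rose by 1.25 on the log2 scale (SE 0.16, adjusted p = 0.000582, quasi-likelihood test of edgeR, Benjamini-Hochberg adjusted). By the same test DNM2, the dynamin that cuts vesicles free, rose by 0.54 (SE 0.08, adjusted p = 0.00127) and FLOT2, a flotillin, by 0.37 (SE 0.07, adjusted p = 0.00455), the last a call lost without either co-cultured library. EHD1 (0.30) and STOM (0.40) were not called. CAV3, the muscle caveolin, had no count in any library. For FLOT1, whose reads fell partly on 3 haplotype entries of the same name, no level could be given.

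Partners of AHNAK changed in both directions. Of 16 annexins, S100 proteins, ferlins, calpains and relatives, 12 were tested, and 7 were called higher and 1 lower, where 18.4% and 15.0% of all genes were. The median of their log2 fold changes was 0.55. ANXA2 and S100A10, which form the complex that binds AHNAK, rose by 0.98 (SE 0.13, adjusted p = 0.000603) and by 1.06 (SE 0.14, adjusted p = 0.000661) on the log2 scale. ANXA2 had 3574, 2484 and 2866 counts in control and 5806 and 4611 after co-culture, so the groups did not overlap. ANXA6, a further annexin, rose by 1.19 (SE 0.17, adjusted p = 0.00108), all by quasi-likelihood test of edgeR, Benjamini-Hochberg adjusted. MYOF, a ferlin of membrane repair, fell by 0.64 (SE 0.20, adjusted p = 0.0339, same test), a call lost without either co-cultured library and with both strands counted. DYSF, the related ferlin dysferlin, had a log2 fold change of 0.02 and was not called.

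Clathrin coats are the other main route of uptake. Of 30 genes of clathrin coats, 29 were tested, and 11 were called higher and 0 lower, where 18.4% and 15.0% of all genes were. The median of their log2 fold changes was 0.20. The calls were 19 without control replicate 1 (16 higher and 3 lower), 7 without control replicate 3, and 5 and 4 without co-cultured replicates 1 and 2. HIP1, which links clathrin to actin, had the smallest p, with a log2 fold change of 0.73 (SE 0.08, adjusted p = 0.000313). The adaptors PICALM and EPS15L1 rose by 0.60 and 0.53 (adjusted p = 0.000597 and 0.000808, quasi-likelihood test of edgeR, Benjamini-Hochberg adjusted). None of the 29 had a log2 fold change above 1, and whether caveola genes and clathrin genes differed as groups was not tested. AP2A2, which was not called, had more reads on 2 patch or haplotype entries of the same name than on the entry tested. Its value thus covers only part of its reads.

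HBMECs are themselves rich in caveolin, so endothelial markers were read beside the caveola genes. The 8 defining endothelial markers, PECAM1, CDH5, VWF, TIE1, CLDN5, ERG, ESAM and EGFL7, summed to 15.6, 9.68 and 9.47 CPM in control and to 11.9 and 12.6 CPM in the co-cultured libraries. The overlap rested on control replicate 1, and against the other control libraries both co-cultured sums were higher. CAV1 and CAV2 were above all control libraries. Each library had 1 or 2 of the 8 markers at or under the floor, and TIE1 was there in all of them. PECAM1 had 14, 10 and 3 counts in control and 18 and 11 after co-culture. CDH5 had 11, 8 and 4 against 7 and 11, and VWF had 159, 75 and 87 against 87 and 90. Of these genes, neither PECAM1 nor CDH5 nor VWF was called. ESAM was the exception among the 8, with 3, 4 and 6 counts in control and 21 and 14 after co-culture, a log2 fold change of 2.14 (SE 0.46, adjusted p = 0.00666, quasi-likelihood test of edgeR, Benjamini-Hochberg adjusted). This call was lost without co-cultured replicate 1.

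Of all 25 endothelial markers, 12 were tested, and 3 were called higher and 0 lower, where 18.4% and 15.0% of all genes tested were. In all libraries 9 were at or under the floor, and MMRN1, PLVAP and ECSCR had no count at all. Without control replicate 3 there were 2 higher and 4 lower calls, and without co-cultured replicate 1 or 2 a single one. The other called genes were ANGPT2, an endothelial growth factor that tumor cells can also make, with a log2 fold change of 2.12 (SE 0.47, adjusted p = 0.00818), and ICAM2, an adhesion molecule, with 0.45 (SE 0.14, adjusted p = 0.0367), by the same test. ANGPT2 had 140, 40 and 32 counts in control and 254 and 287 after co-culture, with 102 to 157 reads on the opposite strand in every library, and it lost its call without co-cultured replicate 2. ICAM2 lost its call without control replicate 2 or 3 without either co-cultured library and with both strands counted. The sum of all 25 was 39.8, 26.8 and 20.6 CPM in control and 38.4 and 44.4 CPM after co-culture, again with an overlap that rested on control replicate 1. Of that sum ANGPT2 alone gave 7.44, 2.21 and 1.64 CPM in control and 13.9 and 19.0 CPM after co-culture. Over control replicates 1 and 2, 16 endothelial and stromal markers with at least 20 reads had over 25% of these on the opposite strand. Of the 16 markers, 11 were endothelial. The 14 other endothelial markers summed to 22.2, 16.6 and 16.3 CPM in control and to 20.7 and 21.9 CPM after co-culture. With VWF and ICAM2 left out as well, the sums were 5.85, 5.47 and 3.94 against 5.74 and 5.28 CPM. ERG alone gave 3.72, 3.54 and 2.82 CPM of these in control and 2.84 and 2.71 CPM after co-culture. With ERG set aside, each co-cultured remainder exceeded each control remainder, and this difference was not tested. CAVIN2, CAVIN3 and EHD2, which endothelial caveolae carry, had no read in the co-cultured libraries, and CAV1 had 56 and 52 counts there. No library of HBMECs alone was in the series, so the levels of these genes in them are not known. The part of HBMEC RNA in the rise of the caveolins beyond these values was not tested.

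**Figure D3:**
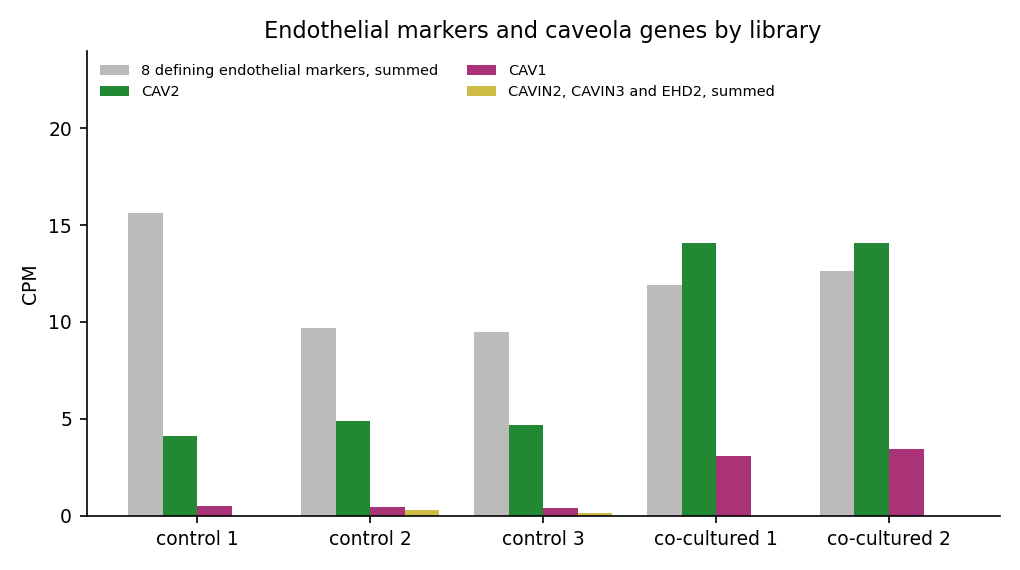
CPM in each library of the 8 defining endothelial markers summed (grey), CAV2 (green), CAV1 (purple) and the sum of CAVIN2, CAVIN3 and EHD2 (yellow), as bars from 0. The caveolins are higher in both co-cultured libraries, the grey bars overlap between the groups, and the yellow bars are at 0 after co-culture. VWF and ERG make up most of each grey bar.

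Stromal cells can accompany microvascular cultures and also carry caveolae. Of 15 fibroblast and mural markers, 13 were tested, and 2 were called higher and 2 lower, where 18.4% and 15.0% of all genes tested were. The median of their log2 fold changes was -1.19. Without control replicate 3 there were 7 calls, without control replicate 2 there were 2, and without either co-cultured library there was 1. RGS5, a mural marker, rose by 0.61 on the log2 scale (SE 0.17, adjusted p = 0.0217, quasi-likelihood test of edgeR, Benjamini-Hochberg adjusted), a call lost without either co-cultured library and without control replicate 2 or 3. FN1, a matrix protein that many tumor cells make, was called higher on the counted strand (1.30, SE 0.20, adjusted p = 0.00143, same test). On that strand FN1 had 249, 241 and 155 counts in control and 557 and 393 after co-culture. On the opposite strand it had 712, 607 and 639 reads in control and 442 and 428 after co-culture. These were more than on the counted strand in every library except co-cultured replicate 1. With both strands counted its log2 fold change was 0.29 and not called. TAGLN, an actin-binding protein of smooth muscle, fell by 1.20 (SE 0.30, adjusted p = 0.0151, same test), a call lost without either co-cultured library, and POSTN had 11, 15 and 3 counts in control and 0 after co-culture. Of the 11 markers not called or not tested, DCN, LUM, PDGFRA, PDGFRB, FAP and ACTA2 had at most 3 counts in either co-cultured library and COL3A1 had 3 and 9. COL1A1, COL1A2, COL6A3 and CSPG4 had 16 to 41 counts there. In CPM the groups overlapped for the 3 collagens, and CSPG4 was lower in both co-cultured libraries than in control without being called.

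The genome around the caveolins was uneven. TES, which encodes a LIM protein of focal adhesions, starts 76.9 kb upstream of the GENCODE start of CAV2 and 289.2 kb upstream of its first RefSeq start. It had 1129, 957 and 1074 counts in control and 3698 and 2885 counts after co-culture. It averaged 56.0 ± 3.66 CPM (SD, n = 3), against 196 ± 8.16 CPM (SD, n = 2) after co-culture, and rose by 1.81 on the log2 scale (SE 0.08, adjusted p = 1.06e-05, quasi-likelihood test of edgeR, Benjamini-Hochberg adjusted). On the far side of CAV1, MET, the receptor of hepatocyte growth factor, had a log2 fold change of 0.09 (SE 0.14), CAPZA2 of 0.18 and ST7 of 0.30, and none was called. TFEC, beyond TES, had 0 counts in control and 3 and 2 after co-culture.

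**Figure D4:**
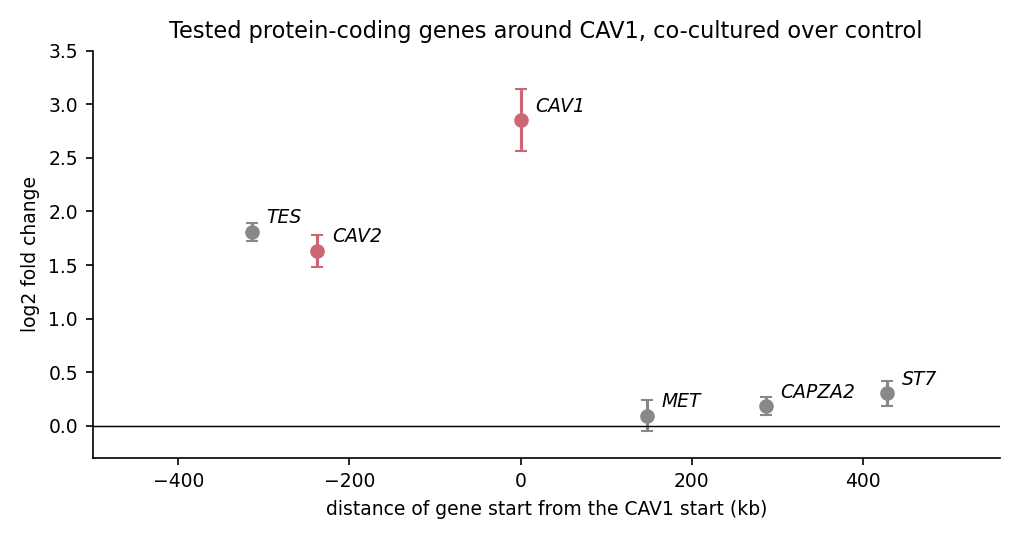
Change on the log2 scale from control to co-cultured (standard error as vertical bars) of the tested protein-coding genes that start within 500 kb of CAV1, against the distance of their GENCODE start from the CAV1 start in kb. CAV1 and CAV2 are red and the other genes grey; TES and CAV2 lie upstream at 1.81 and 1.63, and MET, CAPZA2 and ST7 lie downstream between 0.09 and 0.30.

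The other 7 genes had neighbours of both directions or none called. Around all 9 genes, 136 neighbours were tested, 28 were called higher and 30 lower, beside 18.4% and 15.0% of all genes, and nothing particular to these loci is read from the counts. The median of their log2 fold changes was 0.01. Without co-cultured replicate 1 or 2, 21 and 27 were called. Near CAVIN1, 10 of 36 were higher and 5 lower, led by CNTNAP1, an adhesion protein of axons (2.43, SE 0.13), and the transcription factor STAT3 (1.27, SE 0.10), while CAVIN1 itself was not called. Near AHNAK, 6 of 28 were higher and 8 lower. Those with the smallest p were INCENP, a subunit of the chromosomal passenger complex (-0.95, SE 0.08), SLC3A2, the heavy chain of amino acid transporters (1.31, SE 0.17), and LBHD1 (-0.99, SE 0.17). Near CAVIN3, 2 of 21 were higher and 10 lower. ARFGAP3, which shares exonic sequence with PACSIN2, had a log2 fold change of 0.43 (SE 0.10) and was called higher, but not without either co-cultured library.

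The genes whose level followed CAV1 and AHNAK most closely were sought among 12832 protein-coding genes with a mean of at least 1 CPM. Likeness was the distance between log2 CPM values, each centred on the mean of its gene over the 5 libraries. For CAV1 the nearest genes were ITGAM, an integrin of myeloid cells (distance 0.34), TSC22D3, a glucocorticoid-induced factor (0.36), and GCNT3, a mucin glycosyltransferase (0.38), where the median distance over all candidates was 2.79. For AHNAK they were ELF3, an epithelial transcription factor (0.061), NDRG4 (0.10) and NBPF10 (0.13), with a median of 1.20. ELF3 had 80.5, 89.4 and 100.8 CPM in control and 203 and 168 CPM after co-culture, with co-cultured replicate 1 the highest as for AHNAK. NBPF10 belongs to a family of near-identical copies, so its counts are uncertain. These distances rest on 5 libraries in 2 groups and carry no test.

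**Figure D5:**
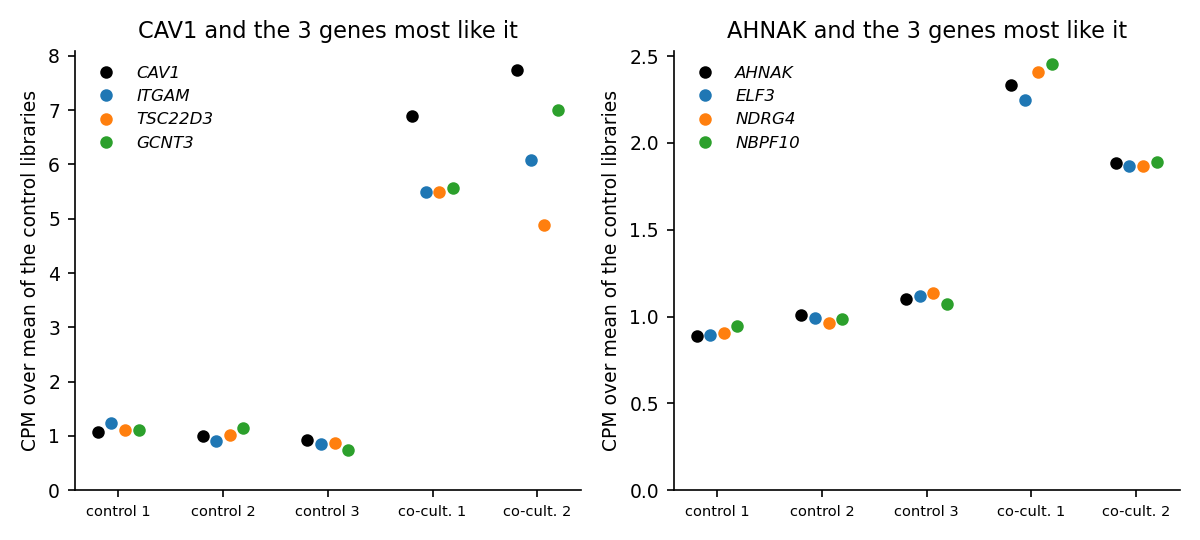
CPM in each library divided by the mean of the 3 control libraries for CAV1 (left) and AHNAK (right), both in black, and for the 3 genes nearest to each in colour; the axes start at 0. CAV1 and its nearest genes are several times above control in both co-cultured libraries, and AHNAK and its nearest genes are higher in co-cultured replicate 1 than in replicate 2.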

How the data were processed

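Total RNA of NCI-H209 cells was depleted of rRNA and made into directional libraries. Per the submitters' processing notes, the tools named were CASAVA 1.8, STAR 2.6.1b and DESeq2, with GRCh38. The authors deposited raw counts per gene for each library, unstranded and for each strand, and a separate table of their comparison. From that table gene names were used. Its normalized signal (the authors' means per group), fold changes and p-values entered no result. All 58780 genes of GENCODE release 29 were present.

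Counts of the strand with 92.3% to 93.1% of assigned reads were used. In edgeR 4.0.16 (R 4.3.3), low counts were filtered with filterByExpr, scaled by TMM and compared by the quasi-likelihood test, 3 control against 2 co-cultured libraries, with Benjamini-Hochberg adjustment over 20360 genes. SE is the log2 fold change over the root of F. An exact permutation test of 3 against 2 cannot go below 0.1. CPM per kb used merged exon lengths. Intervals and floors cover counting error only.

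The 9 genes and all other lists were chosen with earlier results of these data known. Named were all 9 genes, up to 3 called genes per list and direction by smallest p with the defining markers, up to 3 called neighbours per gene within 500 kb, and the 3 genes most like CAV1 and AHNAK. Further genes of the lists (EHD1, STOM, CAV3, FLOT1, DYSF, AP2A2, FLT1, DCN, LUM, PDGFRA, PDGFRB, FAP, ACTA2, COL3A1, COL1A1, COL1A2, COL6A3, CSPG4, CHGA, MMRN1, PLVAP, ECSCR) and the neighbours MET, CAPZA2, ST7 and TFEC were named after their values were seen. Alternatives were DESeq2 1.42.0, other scalings and filters, a replicate block, each library left out, unstranded counts and protein-coding genes only. Start windows came from RefSeq, GRCh38.p14, and plots from matplotlib 3.10.9.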

Additional observations from a re-analysis of the deposited data

Results flagged for a closer look

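Reads on the strand opposite to PACSIN2, which the comparison on the counted strand leaves out, numbered 5, 5 and 4 in control and 11 and 14 in the co-cultured libraries. They were flagged because both co-cultured libraries lay above all control libraries, the lower of them at 11 reads. On the counted strand 29.4% of all genes tested lay so. The share on the opposite strand was not computed, and nothing is read from this pattern. These reads were 0.515% of all reads of PACSIN2.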

How the results depend on the processing

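The direction of CAV1, CAV2, CAVIN1, PACSIN2 and AHNAK was the same under every alternative that gave a value, 14 each and 13 for CAV1, which a minimum of 10 counts in every library removed. Log2 fold changes ranged from 2.77 to 2.96 for CAV1, 1.55 to 1.69 for CAV2, 0.24 to 0.67 for CAVIN1, 0.29 to 0.43 for PACSIN2, 0.92 to 1.23 for AHNAK and -0.43 to 0.32 for AHNAK2. The higher calls were 55.1% of all calls, and 43.9% under upper-quartile scaling. With each library left out, calls over all genes ranged from 2734 to 9897, of the 9 genes from 3 to 4, of caveola relatives from 2 to 7, of AHNAK partners from 6 to 8, of clathrin genes from 4 to 19, of endothelial markers from 1 to 6, of stromal markers from 1 to 7, of neuroendocrine markers from 4 to 11 and of neighbours from 21 to 80. Without co-cultured replicate 1 or 2 the calls over all genes fell to 2734 and 3023, and the 1 library left in that group is then assumed to vary like the control libraries. A filter of at least 1 count in any library gave 6 endothelial calls (2 higher and 4 lower) and 8 stromal calls (2 higher and 6 lower), against 3 and 4. The causes were not tested.

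Replicate numbers are shared by name only: the deviations of equal numbers correlated at -0.11 and -0.07. With the number as a replicate block, 4 of the 9 genes were called, together with 7 clathrin genes, all higher, 6 endothelial markers (2 higher and 4 lower) and 8 stromal markers (1 higher and 7 lower). Replicate number 3 exists in control only, so this setting takes no contrast from control replicate 3.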
